A study of Mus musculus with 15 samples.

Results

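H3K4Me1, the mono-methylation of lysine 4 of histone H3, was compared between 0 h and 3 h post-induction (hpi) in C10 cells by chromatin immunoprecipitation followed by sequencing (ChIP-seq). C10 is a mouse pre-B cell line derived from HAFTL cells that carries an estrogen-inducible C/EBPα with a GFP reporter (C/EBPαER-GFP), and cells of both times carry this transgene. According to the labels, cells were induced with 100 nM β-estradiol and grown with IL-3 and CSF-1, each at 10 nM. The study's methods write the β-estradiol dose in µM, so its unit is uncertain. The labels also name control cells in 0.1% ethanol, but do not say whether the 0 hpi cells were such controls, so the agonist, the cytokines and the hours in culture cannot be told apart. The 2 libraries were chosen by their labelled mark and time out of 15 libraries in the series, and there was 1 library at each time. A difference between the times therefore cannot be set against replicate error. All intervals below are exact 95% intervals that cover counting error only.

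Nucleosomes at promoters and enhancers carry different methyl marks. Mono-methylated lysine 4 is typical of enhancers and of the flanks of active promoters, it is written mainly by the MLL3 and MLL4 enzymes, and it can precede activity. Acetylation of lysine 27 (H3K27Ac) is found at enhancers and promoters in use, and tri-methylation of the same residue (H3K27Me3) marks regions silenced by Polycomb. C/EBPα is a transcription factor of granulocytes and macrophages, and its expression in B cell precursors turns them towards macrophages.

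Sequences of 300 bp are shown because they are the fullest part of the windows with the largest changes more than 2500 bp from an annotated start, first 2 gains and then 2 losses, on the plus strand of mm9. Capitals mark matches to the C/EBP letters TTGCNNAA or the PU.1 letters GAGGAAGT on either strand, and stretches without capitals held neither.
Tlr2 gain, chr3:83688751-83689050: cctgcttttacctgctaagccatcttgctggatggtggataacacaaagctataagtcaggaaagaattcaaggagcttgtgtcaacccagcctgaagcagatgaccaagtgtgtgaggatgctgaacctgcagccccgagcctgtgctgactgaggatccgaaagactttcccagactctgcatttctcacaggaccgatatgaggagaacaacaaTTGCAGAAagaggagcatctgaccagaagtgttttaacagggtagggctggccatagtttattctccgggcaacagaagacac
Naip2 gain, chr13:100953401-100953700: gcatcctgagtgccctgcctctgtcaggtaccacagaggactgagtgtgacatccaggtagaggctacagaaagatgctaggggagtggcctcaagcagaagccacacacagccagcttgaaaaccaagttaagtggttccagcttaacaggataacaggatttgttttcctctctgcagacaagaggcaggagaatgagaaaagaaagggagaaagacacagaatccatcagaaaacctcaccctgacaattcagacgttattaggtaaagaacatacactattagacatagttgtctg
Mcf2l loss, chr8:12879101-12879400: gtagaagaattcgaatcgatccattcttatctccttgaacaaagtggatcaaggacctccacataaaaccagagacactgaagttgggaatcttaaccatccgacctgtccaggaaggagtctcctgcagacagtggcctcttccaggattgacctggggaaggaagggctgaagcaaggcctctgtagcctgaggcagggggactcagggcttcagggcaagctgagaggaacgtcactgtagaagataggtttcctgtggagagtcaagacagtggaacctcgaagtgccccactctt
Khsrp loss, chr17:57176051-57176350: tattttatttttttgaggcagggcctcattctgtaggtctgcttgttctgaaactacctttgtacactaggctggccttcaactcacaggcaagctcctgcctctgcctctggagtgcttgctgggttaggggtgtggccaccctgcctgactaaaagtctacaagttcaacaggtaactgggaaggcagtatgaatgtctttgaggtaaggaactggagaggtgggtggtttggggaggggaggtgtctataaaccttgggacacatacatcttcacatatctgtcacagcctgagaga
The Tlr2 stretch held 1 tag at 0 hpi and 30 at 3 hpi, and the Naip2 stretch 0 and 16. The Mcf2l stretch held 8 and 0 tags and the Khsrp stretch 6 and 0.

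The deposited files held 14.4 M tags at 0 hpi and 17.8 M at 3 hpi, each an aligned interval of 36 bp. The pre-B identity of the cells was checked on H3K27Ac at gene starts, where 34 tags in 3 kb count as enriched. All 10 pre-B markers, Pax5 and Ebf1 among them, were enriched at both times (lowest 198 tags at 0 hpi and 52 at 3 hpi, both at Rag1). Of 10 macrophage markers, 6 were enriched at 0 hpi and 8 at 3 hpi, but Cd14 and Fcgr1 stood at the threshold itself at 0 hpi, with 34 tags each. The 5 T cell markers, Cd3e, Cd3g, Cd4, Cd8a and Lck, ranged from 5 to 24 tags at 0 hpi and from 2 to 11 at 3 hpi. T cell genes outside this set were not all low. The start of Cd5 held 1113 and 653 tags and that of Gata3 274 and 186, but Cd3d had 12 and 12 and Bcl11b 3 and 3. The 3 neural markers did not exceed 6 tags at either time, and 1 of 4 erythroid markers, Klf1, was enriched at both.

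With 1 tag per position and 10.9 M tags in each library, 94838 windows of 3 kb were enriched in H3K4Me1 at 0 or 3 hpi, among 815740 mappable windows that averaged 13.4 tags. Enriched means at least 27 tags, a Poisson upper tail below 0.001 over that mean. Of the enriched windows, 76393 (80.6%) were enriched at both times. A window counted as gained or lost when its change, log2 of the 3 hpi over the 0 hpi tags with 5 tags added to each, reached 2-fold.

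Among the enriched windows, H3K4Me1 rose 2-fold in more than it fell, 2891 gained (3.05%) against 683 lost (0.72%), while 91264 changed less than 2-fold. Over every window that held a tag this order turned, with 8710 that rose 2-fold and 25935 that fell 2-fold. The largest gain was 3.07 on the log2 scale and the largest loss was -2.0. A gain of 4-fold or more was seen in 206 windows and a loss of that size in 1. For 705 gained windows the interval of the 3 hpi to 0 hpi ratio lay wholly above 2-fold, against 12 lost windows that lay wholly below it. The threshold cut through a continuous range, with values of 1.0 just inside and 0.99 just outside for gains, and -1.0 and -0.99 for losses. More cells with the mark and more mark per cell cannot be told apart in these bulk samples.

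**Figure D1:**
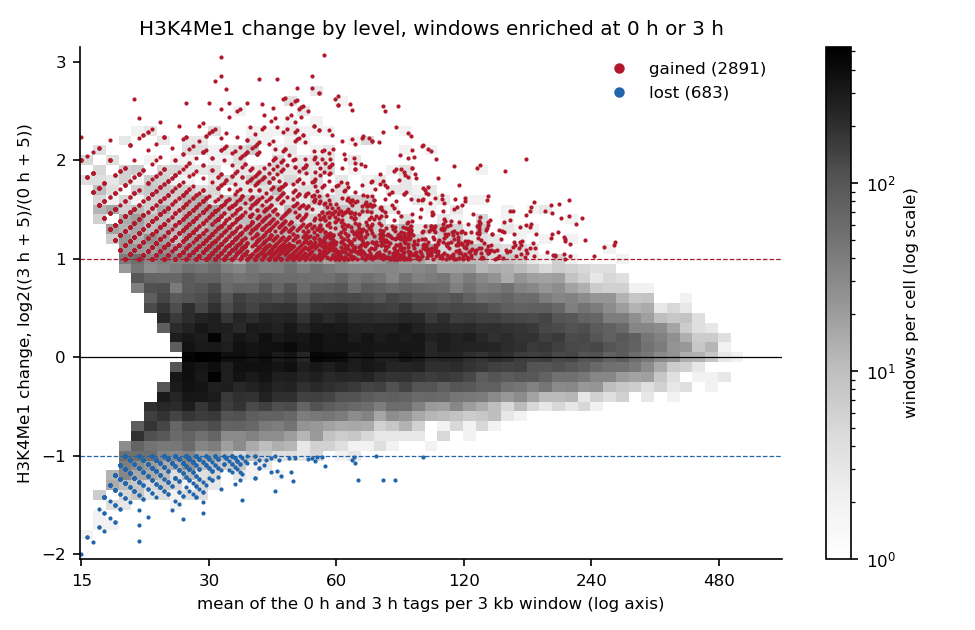
Change of H3K4Me1 from 0 to 3 hpi (vertical axis, log2 of the 3 h over the 0 h tags with 5 tags added) against the mean tags of the window (horizontal log axis) for the 94838 enriched windows, with grey showing windows per cell, red the 2891 gained and blue the 683 lost windows. Gains reach 3.07 and extend to windows of high level, while nearly all losses sit at the low end.

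The requirement of 27 tags at either time bears on where windows started, since a gained window could pass it at 3 hpi alone and a lost one had to pass it at 0 hpi. At 0 hpi, 1916 of the gained windows (66.3%) were not enriched and 975 were. Of the lost windows, 664 (97.2%) were no longer enriched at 3 hpi. In windows with at least 27 and fewer than 40 tags at 0 hpi, just past the enrichment threshold, 460 of 24634 were gained and 535 were lost. From 60 to fewer than 100 tags, 184 of 20096 were gained and 19 were lost, and of 4466 windows with 200 or more tags none was gained and none lost.

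Windows whose centre lay within 2500 bp of an annotated start were called proximal and the others distal. Proximal windows numbered 24488, of which 551 (2.25%, interval 2.07 to 2.44) were gained and 127 (0.519%) were lost. Of 70350 distal windows, 2340 (3.33%, interval 3.19 to 3.46) were gained and 556 (0.79%) were lost. The share gained was higher at distal windows, whereas their median change was lower, 0.08 against 0.14 on the log2 scale. The intervals are over windows of 1 library pair, which are not replicates. Proximal windows had more GC (median 48.2% against 44.6%), and within bins of GC the order of the shares did not hold throughout. The proximal and distal shares were 5.05% and 5.94% below 38% GC, 3.91% and 4.67% at 38 to 42%, 3.09% and 3.54% at 42 to 46%, 1.73% and 2.20% at 46 to 50%, 1.36% and 1.38% at 50 to 54%, 1.09% and 0.70% at 54 to 58%, and 3.40% and 2.4% above it. These medians spread over the 20 chromosomes with an SD of 0.06 and 0.05. The share gained rose from 2.04% within 500 bp of a start to 3.67% at 10000 to 20000 bp, was 3.44%, 3.43% and 3.8% in the next 3 bins and 2.25% beyond 200000 bp. Of the gained distal windows, 55.8% had their centre in an intron and 40.8% between genes, against 56.0% and 40.1% of all enriched distal windows.

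The change went with the base composition of the window. Of windows with less than 38% GC, 5.83% were gained and 0.0332% lost, while at 50 to 54% GC 1.37% were gained and 1.37% lost, and at 54 to 58% 0.951% and 1.07%. Among distal windows losses outnumbered gains at 50 to 54% GC, 138 against 106. The median change fell from 0.35 to -0.04 from the first of these bins to that of 50 to 54%, and that of background windows, which were enriched at neither time, fell from 0.00 to -0.32. The median of enriched windows turned back above this, and the 919 enriched windows with at least 58% GC had a median change of 0.17, with 3.26% gained and 0.326% lost. Median GC was 42.7% in gained distal, 47.8% in lost distal and 44.6% in all enriched distal windows. Chromosome X had the largest share of gained windows, 4.82%. Background windows as a whole held 4.08 M tags at 0 hpi and 3.37 M at 3 hpi, and the share of tags in enriched windows was 61.0% and 67.4%. The part of base composition and of background in the gains and losses was not tested. When the change was taken relative to windows of like GC, 2010 windows were gained and 840 lost. Scaling to equal background, which held a log2 ratio of -0.28, gave 6203 and 193, and scaling to windows enriched at both times gave 1951 and 1106 with a distal median of -0.06.

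**Figure D2:**
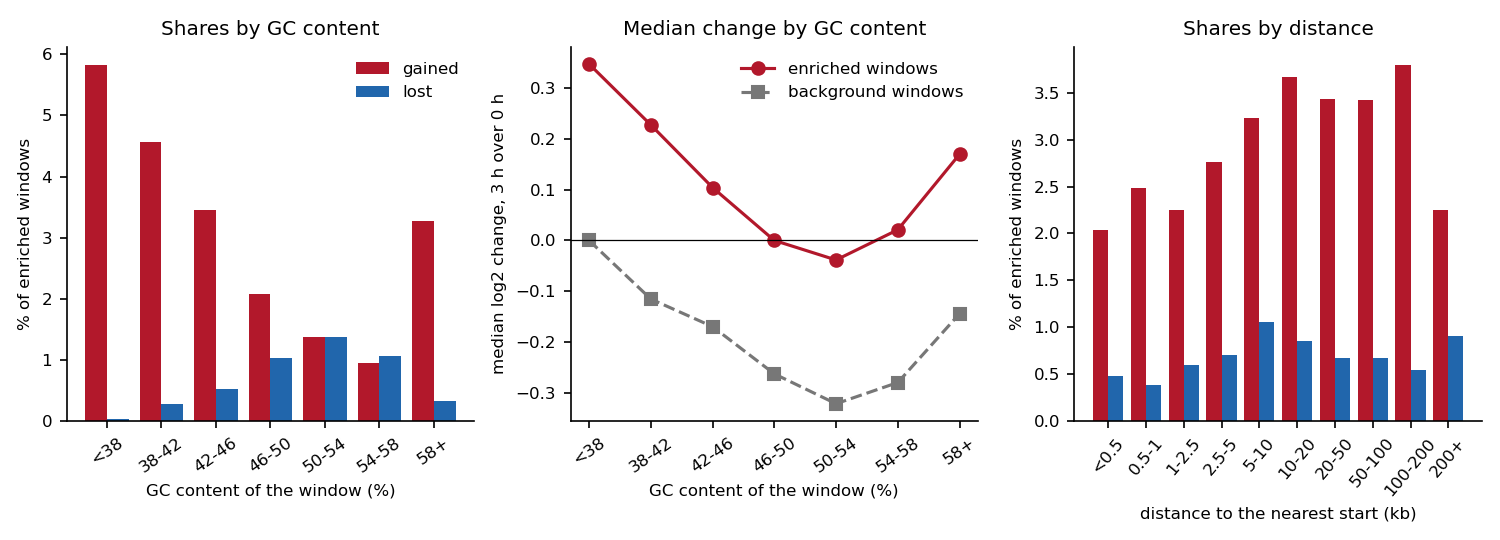
Share of enriched windows gained (red) and lost (blue) by GC content and by distance to the nearest start, and in the middle the median log2 change by GC content of enriched windows and of background windows, which were enriched at neither time. The share gained falls from 5.83% below 38% GC to 1.37% at 50 to 54% and 0.951% at 54 to 58% GC, and the medians of both kinds of window fall up to 54% GC, while windows with at least 58% GC are back at 3.26% gained.

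The 8 largest distal gains lay at Tlr2, Naip2, Rap1b, Tlr13, Plekha8, Plxnc1, Prcc and Dgat2. They held 3 to 9 tags at 0 hpi and 58 to 104 at 3 hpi, and all 8 were enriched at 12, 24 and 48 hpi. The window of Tlr2, a receptor for bacterial lipoproteins, lay 43.8 kb upstream of its start between genes (chr3:83688001-83691000), and went from 8 tags at 0 hpi to 104 at 3 hpi, a change of 3.07 (interval of the ratio 2.67 to 4.95). It held 310, 279 and 235 tags at 12, 24 and 48 hpi, so the value at 3 hpi lay far above 0 hpi and far below the later times. H3K27Ac at this window went from 3 tags to 165.

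The Naip2 window, in an intron of this gene for a sensor of bacterial secretion systems 12.6 kb past its start (chr13:100953001-100956000), went from 3 to 61 tags (interval 2.73 to 6.66). Its later counts were 299, 226 and 202. The window in an intron of Rap1b, which encodes a small GTPase of cell adhesion, went from 4 to 60 tags. Tlr13, an endosomal receptor for bacterial ribosomal RNA, had 9 tags and then 96 in an intron 6.93 kb past its start. These 4 windows had at most 13 H3K27Ac tags at 0 hpi and at least 93 at 3 hpi.

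In an intron of Plekha8, a lipid transfer gene, 6 tags became 73, and the nearest annotated start was that of the transcript Gm15863. This was the only one of the 8 that changed little after 3 hpi, with 88, 81 and 95 tags. A window 67.3 kb upstream of Plxnc1, which encodes a semaphorin receptor, went from 7 to 80 tags, with an annotated 7SK copy as its nearest start. The window 7.97 kb upstream of Prcc went from 4 to 58 and then 135, 83 and 39 tags. Upstream of Dgat2, an enzyme of triglyceride synthesis, 9 tags became 88 (interval 2.30 to 4.47).

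The 4 largest proximal gains were of 2 kinds. At Apoc1, an apolipoprotein gene, the window 0.494 kb upstream of the start held 13 tags and then 106 (interval 2.19 to 3.98), and H3K27Ac went from 3 to 284 tags. A window in an intron of the nuclear receptor gene Rora, close to the start of the transcript Gm15511, went from 10 to 95 tags, with H3K27Ac from 9 to 127. A window 2.42 kb from the start of Gm17311, with Ptgs2, the inducible cyclooxygenase, as nearest coding gene 67.2 kb away, went from 9 to 81 tags, with H3K27Ac from 13 to 310. The start of Dusp2, a MAP kinase phosphatase gene, differed from these, since H3K4Me1 went from 5 to 55 tags but H3K27Ac was already at 1113 tags and went to 898. H3K4Me1 there was 35, 17 and 19 tags at 12, 24 and 48 hpi, so it was highest at 3 hpi.

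The largest losses were small in tags. The 8 distal ones held 27 to 35 tags at 0 hpi, near the enrichment threshold of 27, and 3 to 7 at 3 hpi. The largest lay in an intron of Mcf2l, which encodes an exchange factor of small GTPases (chr8:12879001-12882000), with 27 tags and then 3, a change of -2.0 (interval of the ratio -5.53 to -1.47). Next came an intron of Slc25a41 upstream of Khsrp, an RNA-binding protein gene, with 28 and 4 tags. The others were windows in introns of Msi2 (35 and 6 tags), Chst11 (29 and 5), 4931406C07Rik (28 and 5) and Ak8 (34 and 7), near 1700063H04Rik (27 and 4) and 33.8 kb downstream of Cd2 (27 and 4). At Ak8 the change was under 2-fold with identical tags kept, where the thinning was also drawn anew, and under 2-fold with another seed alone. H3K27Ac at these 8 windows was at most 16 tags at either time, below its enrichment threshold of 34. Only 4931406C07Rik was enriched again later, with 14, 43 and 49 tags at 12, 24 and 48 hpi.

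The largest proximal losses included windows at Sumo3 (46 and 12), Gm16754 (33 and 8, likewise under 2-fold with identical tags kept and thinned anew) and Abhd1 (39 and 11). At Sumo3, which encodes a ubiquitin-like modifier, the later counts were 34, 78 and 67, and at Abhd1, where the window centre lay in an exon of Preb, they were 55, 133 and 159. In these 2 windows the value at 3 hpi was therefore the lowest of all 5 times.

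**Figure D3:**
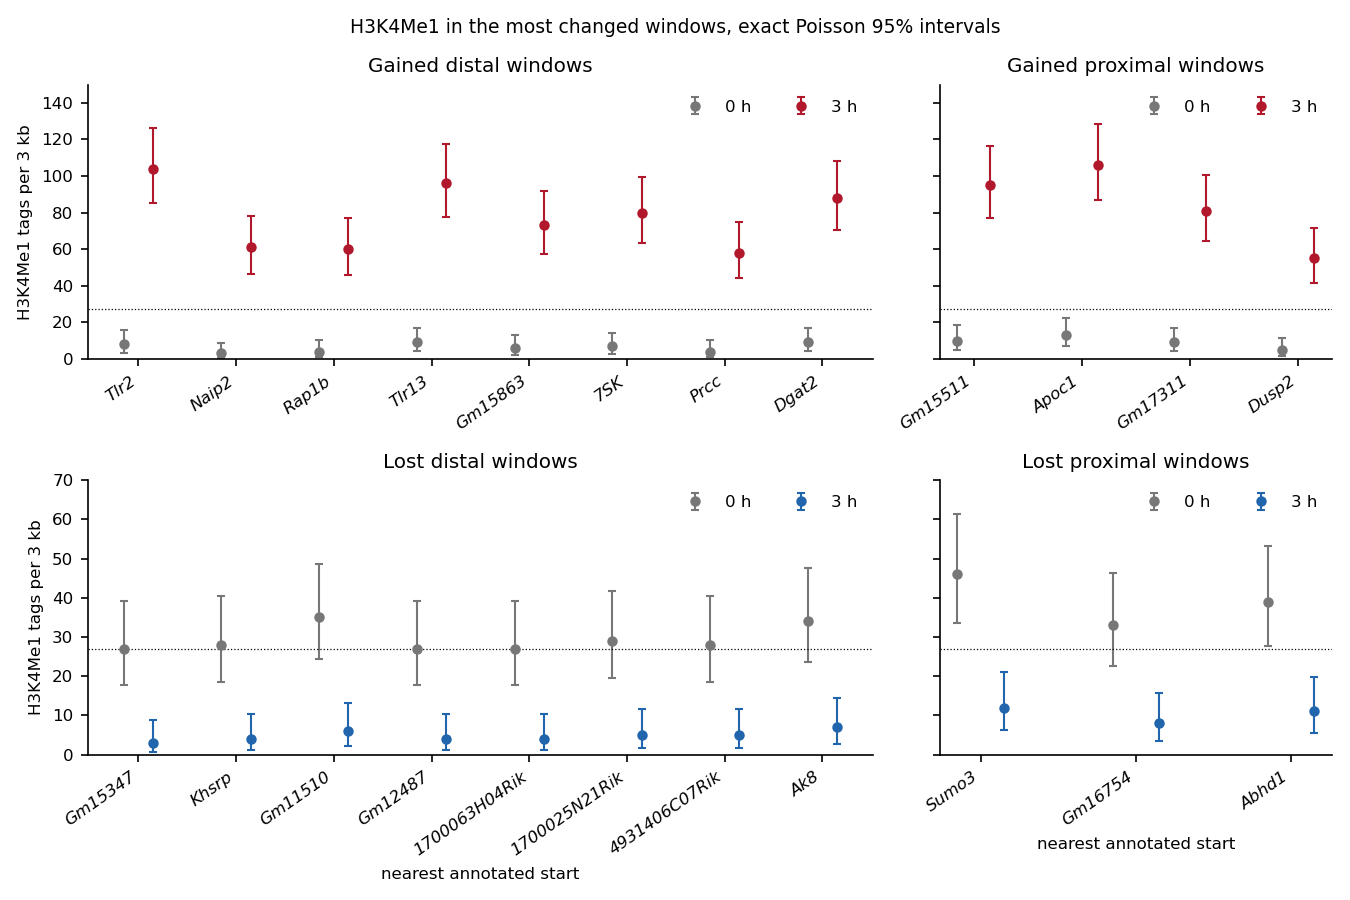
H3K4Me1 tags per 3 kb window at 0 hpi (grey) and 3 hpi (red or blue) in the 8 most gained and 8 most lost distal windows and the 4 most gained and 3 of the 4 most lost proximal ones, named by the nearest annotated start, with exact Poisson 95% intervals and a dotted line at the 27 tags that count as enriched. The gained windows go from 3 to 13 tags to 55 to 106, and the lost ones from 27 to 46 tags to 3 to 12.

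The 2891 gained windows formed 2285 runs with gaps of at most 9 kb, of which 433 held 2 or more windows, and 35.9% of gained windows lay in such runs. The 683 lost windows formed 664 runs, 18 of them with 2 or more, but fewer windows form fewer runs by number alone, and how often enriched windows as such lie in runs was not tested. The longest run of gains covered 45 kb at Anxa2 (chr9:69282001-69327000), which encodes the membrane-binding protein annexin A2, with 9 gained windows. H3K4Me1 over this stretch went from 299 to 928 tags and then to 3271, 2975 and 2933, and H3K27Ac from 142 to 2334 tags. Next by number of gained windows was a run of 42 kb at Gm17509, with 8 of them, which went from 519 to 1202 tags. A run of 24 kb at Orm1, Orm2 and Orm3, genes of acute phase proteins, went from 308 to 897 tags. A run of 21 kb nearest to the matrix metalloproteinase genes Mmp27 and Mmp8 went from 389 to 1098, with H3K27Ac from 161 to 2758. A run of 30 kb at Tlr2 went from 247 to 611 tags. Runs with as many gained windows as those at Orm1 or Tlr2 also lay at Ahcyl2 (408 and 974 tags), Auh (198 and 542) and Arhgap31 (354 and 706).

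H3K27Ac, measured in other libraries and not used to choose the windows, was followed at the same places. In gained distal windows its median went from 13 tags at 0 hpi to 62 at 3 hpi, a median change of 1.74 on the log2 scale, against -0.14 in all enriched distal windows. Of the 1678 gained distal windows enriched in H3K27Ac at either time, 1471 (87.7%) gained H3K27Ac 2-fold and 9 lost it. Most of the 1678 passed this filter at 3 hpi alone, which favours a gain, since only 305 with both marks and 58 with H3K27Ac alone were enriched in H3K27Ac at 0 hpi. In these 2 groups the median H3K27Ac change was 1.43 and 0.36. The same shares among all 39228 distal windows enriched in both marks were 13.5% and 19.2%. Where H3K4Me1 rose, the median H3K27Ac change was larger in each bin, with -0.14 for H3K4Me1 changes of 0 to 0.5, 0.45 for 0.5 to 1, and 1.48, 2.19 and 2.84 in the bins of 1 to 1.5, 1.5 to 2 and above 2. Where H3K4Me1 fell there was no such order, with -0.34 for changes of -0.5 to 0, -0.24 for -1 to -0.5 and -0.15 below -1. Of the gained distal windows, 1520 (65.0%) had neither mark at 0 hpi, 457 had H3K4Me1 alone, 305 had both and 58 had H3K27Ac alone.

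Lost distal windows had little H3K27Ac. Their median was 14 tags at 0 hpi and 12 at 3 hpi, both below the 34 tags that count as enriched, and 42 of the 556 were enriched at either time. Of these 42, 11 lost H3K27Ac 2-fold and 2 gained it. H3K27Me3 was at a median of 18 tags at both times in gained distal windows and in lost ones. Of the gained distal windows, 23.8% were enriched in H3K27Me3 at 0 hpi and 24.7% at 3 hpi, and of the lost ones 27.2% and 21.8%, against 13.3% and 12.4% of all enriched distal windows.

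H3K27Ac is commoner at proximal windows, with 76.1% of all enriched proximal and 55.8% of all enriched distal windows enriched in it at either time. Of 551 gained proximal windows, 125 (22.7%) were enriched in H3K27Ac but not in H3K4Me1 at 0 hpi, as at Dusp2, against 58 of 2340 (2.48%) distal ones. In these 125 windows H3K4Me1 went from a median of 16 to 45 tags while H3K27Ac was at 396 and 425. Among gained proximal windows enriched in H3K27Ac at either time, 54.3% gained H3K27Ac 2-fold, against 5.93% of all enriched proximal windows with H3K27Ac, of which 7.2% lost it. Here too many windows passed at 3 hpi alone, and in the 134 enriched in both marks at 0 hpi the median H3K27Ac change was 0.53, against 0.09 in the 125.

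The later H3K4Me1 libraries were not used to choose the windows either. Gained distal windows that were not enriched at 0 hpi had a median of 14 tags at 0 hpi, 43 at 3 hpi and 78, 81 and 75 at 12, 24 and 48 hpi, and 83.0% of them were enriched at 48 hpi. Those enriched at 0 hpi had 42, 109, 180, 157 and 133 tags. Lost distal windows had 32, 12, 14, 16.5 and 17 tags, and 14.2%, 26.3% and 30.8% of them were enriched at 12, 24 and 48 hpi. Proximal gains stood at 21, 61, 82, 68 and 58 tags. Between 3 and 12 hpi, a comparison that shares the 3 hpi library, 11719 windows (11.8%) were gained and 4992 (5.05%) lost, of 98915 enriched windows.

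**Figure D4:**
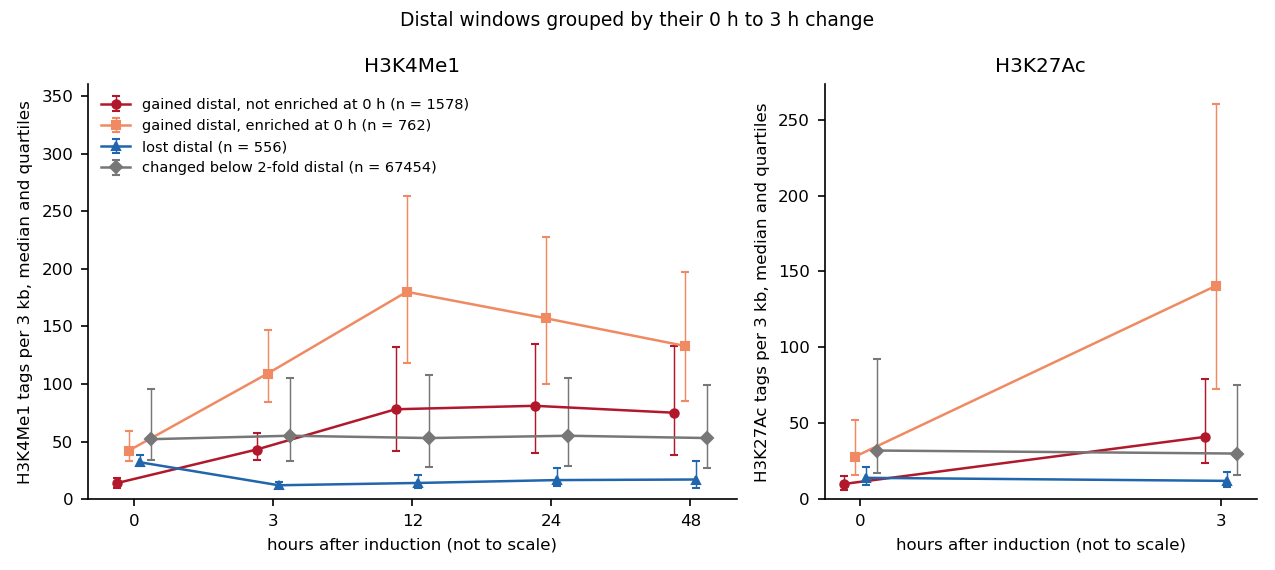
Median H3K4Me1 (left, 5 times) and H3K27Ac (right, 0 and 3 h) tags per 3 kb window with quartiles as bars, for distal windows grouped by their change from 0 to 3 h. The median of windows gained from no enrichment goes from 14 to 43 tags at 3 h and 78 at 12 h. That of lost windows stays between 12 and 17 tags after 0 h, though their upper quartile reaches 33 at 48 h. Median H3K27Ac is higher at 3 h in both gained groups.

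Each window was assigned to the nearest protein-coding start within 100 kb, which gave 14584 genes with at least 1 enriched window. Of these, 1804 (12.4%) had a gained window and 594 (4.07%) a lost one, and the median change of the summed tags per gene was 0.11 on the log2 scale. The genes with the most gained windows were Auh (10 of 17 enriched windows), Ahcyl2 (8 of 27), Gm17509 (8 of 14), Rbms1 (8 of 31) and Tlr2 (8 of 14). No gene had more than 3 lost windows, and 5 genes had 3, namely 4933427D06Rik, Ada, Bach2, Dtnb and Gtf3c4. At the B cell factor gene Bach2 these were 3 of 86. Its sum did not fall, with 7117 and 7203 tags (0.02, interval of the ratio -0.03 to 0.06).

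The genes of 9 lists were then read, of which 20 of 22 myeloid factors, 15 of 16 non-blood factors and all members of the other lists matched the annotation. Among 25 genes of macrophage surface proteins and receptors, 23 had enriched windows, and 22 of these 194 windows (11.3%) were gained and 1 was lost, against 3.03% and 0.734% of the windows of all genes. The median change was 0.29. Since a window could be enriched through 3 hpi alone, genes with few tags at 0 hpi had to show a rise. The fungal receptor gene Clec7a (dectin), one of these, had 25 tags at 0 hpi and 81 at 3 hpi in its enriched windows (1.52), Clec4d, a C-type lectin gene with 1 such window, 11 and 39 (1.46), and Cd14, the lipopolysaccharide co-receptor, 119 and 245 (1.01). Sirpa, a receptor for the CD47 signal, had 218 and 431 (0.97). Tlr2, Cd36, Csf2rb, Itgax and Tlr4 also had gained windows, with changes between 0.19 at Tlr4, which also had the lost window, and 0.89 at Tlr2. Of the 22 gained windows, 8 were at Tlr2. Counted by gene, 9 of 23 (39.1%) had a gained window, against 12.4% of all genes, with a median of 8 enriched windows against 4. The macrophage markers Csf1r (667 and 607 tags, -0.13) and Itgam (1134 and 1058, -0.10) had no gained window and were lower at 3 hpi.

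Cytokine and chemokine genes and their receptors had 19 of 223 windows gained (8.52%, against 3.03% for all genes) and 1 lost (0.448%, against 0.734%). Their median change was 0.47. Ccl2, a monocyte attractant, had 268 tags and then 512 (0.92), Il1rn, the antagonist of the interleukin-1 receptor, 274 and 505 (0.87), Il1b 179 and 311 (0.78) and Ccl3 466 and 766 (0.71). Il6 had 3 gained windows, Csf1 had 4, Osm and Ccl6 had 2 each and Il6ra had 1, while the lost window was at Tgfbr2. Of 18 granule and early myeloid genes 9 had enriched windows, and 3 of these (33.3%) had gained ones, against 12.4% of all genes. By window 8 of 33 were gained (24.2%, against 3.03%). In both lists a window could again be enriched through 3 hpi alone, which favours a gain. Of the 8, 6 were at Mmp8 and Mmp12, both on chromosome 9, and 2 at Camp, while Mpo, Elane and Prtn3 had none and S100a9 had 30 and 19 tags (-0.54) in its 1 enriched window. Lcn2 and Mmp9 had no gained window either. Camp, an antimicrobial peptide gene, went from 45 to 114 tags (1.25), and the metalloproteinase genes Mmp8 (534 and 1058) and Mmp12 (258 and 496) by 0.98 and 0.93. Mmp12, read in this list, is a macrophage elastase gene and was also among the macrophage markers above.

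Lysosome and phagocytosis genes had 7 of 151 windows gained (4.64%, against 3.03% for all genes), at Ctsc, Cybb, Lyz2 and Cyba, and 1 lost (0.662%, against 0.734%), at Ncf4. Cybb, a subunit of the phagocyte oxidase, went from 317 to 554 tags (0.80) and the lysozyme gene Lyz2 from 165 to 249 (0.58). Ncf1, another subunit of that oxidase, had 443 and 590 (0.41) and no gained window. Myeloid transcription factor genes had 13 of 269 gained (4.83%, against the same 3.03%) and 2 lost (0.743%), with a median of 0.26. By window both lists lay near the shares of all genes. By gene, 7 of 17 myeloid factors (41.2%) and 4 of 19 lysosome genes (21.1%) had a gained window, against 12.4% of all genes. A lost window was at 11.8% and 5.26%, against 4.07%. Genes of these lists had a median of 10 and 6 enriched windows, against 4. Of the myeloid factors, Fosl2, an AP-1 subunit, changed most, from 121 to 356 tags (1.52) with 4 of its 6 windows gained. Runx1 also had 4 gained windows, but of 76, with 1 lost, and its sum went from 6690 to 7969 tags (0.25). Nfe2, an erythroid and myeloid factor, had 530 and 721 tags (0.44) and no gained window, as had Egr2 with 51 and 65 (0.32). Fos, Junb, Egr1, Klf6 and Nfe2l2 each had 1, and Irf8, a factor of both B cells and monocytes, had none and 1 lost, with 6384 and 6306 tags.

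B cell identity genes had a share of gained windows below that of all genes and a share of lost windows above it, both on small counts. Of their 519 enriched windows, 7 (1.35%, against 3.03% for all genes) were gained and 6 (1.16%, against 0.734%) lost, and the median change was 0.07, against 0.11 for all genes. These differences were not tested. Their median H3K27Ac change over the same windows was -0.50, against -0.03 for all genes. The share of H3K27Ac tags in windows enriched in that mark was 71.4% at 0 hpi and 65.3% at 3 hpi, and its part in these changes was not tested. Pax5, the factor that keeps B cell identity, had 3253 and 2940 tags (-0.15, interval of the ratio -0.22 to -0.07), with 1 window gained and 2 lost, and had H3K27Ac of 6740 and 4801. Vpreb1 and Igll1, genes of the surrogate light chain, had 77 and 145 tags (0.87) and 516 and 723 (0.48). Of the 2 signalling chains of the receptor complex, Cd79a had 311 and 476 tags (0.61) and Cd79b 1434 and 1440 (0.01, interval -0.10 to 0.11). Counted by gene, 6 of 22 (27.3%) had a gained window and 3 (13.6%) a lost one, against 12.4% and 4.07% of all genes, although the genes of this list had a median of 13 enriched windows against 4. Il7r, the interleukin-7 receptor gene, had 2 gained of 42 windows and went from 3702 to 4417 tags (0.25). Vpreb3 (269 and 360 tags, 0.41), Lef1 (0.07) and Pou2af1 (0.02) had 1 gained window each. Bcl11a (0.07) had 1 lost window and Bach2 (0.02) had 3. At Cd79a, H3K27Ac went from 2205 to 1297 tags while H3K4Me1 was higher.

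In the lists of other cells and of genes every cell uses, no window was gained, though 1 of a T cell gene was with another random seed. The largest upward change there was 0.61 at Tubb5 (254 and 391 tags), a tubulin gene. Vcp had 116 and 153 tags (0.38), Ppia 197 and 257 (0.38) and Snrpd3 165 and 128 (-0.35), and the lost window of this list was at Psmb4 (-0.13). T cell genes had 99 enriched windows with 1 lost and a median change of -0.04, genes every cell uses 61 with 1 lost and 0.16, and non-blood developmental factors 44 with 3 lost and -0.42. At the 3.03% gained and 0.734% lost of all genes' windows, lists of this size would hold few of either, so the counts of 0 gained and 1 lost say little about them. For non-blood factors the 3 of 44 windows lost were 6.82%, at 3 of 7 genes (42.9%, against 4.07% of all genes). All 7 of these genes had a change below 0. These differences rest on few windows and were not tested. Among T cell genes, Cd3d had 100 and 124 tags (0.30), Cd4 160 and 132 (-0.27) and Cd28 1866 and 2132 (0.19), and the lost window was at Gata3 (-0.04). Of the non-blood factors, Nkx2-5 had 81 and 49 tags (-0.67), Myod1 148 and 105 (-0.48), Pax2 141 and 104 (-0.42) and Foxa2 31 and 22 (-0.42), and the lost windows were at Nkx2-5, Pax2 and Lhx2. Median GC of the genes' windows was 45% to 49% across the 9 lists and 46.4% for all genes.

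**Figure D5:**
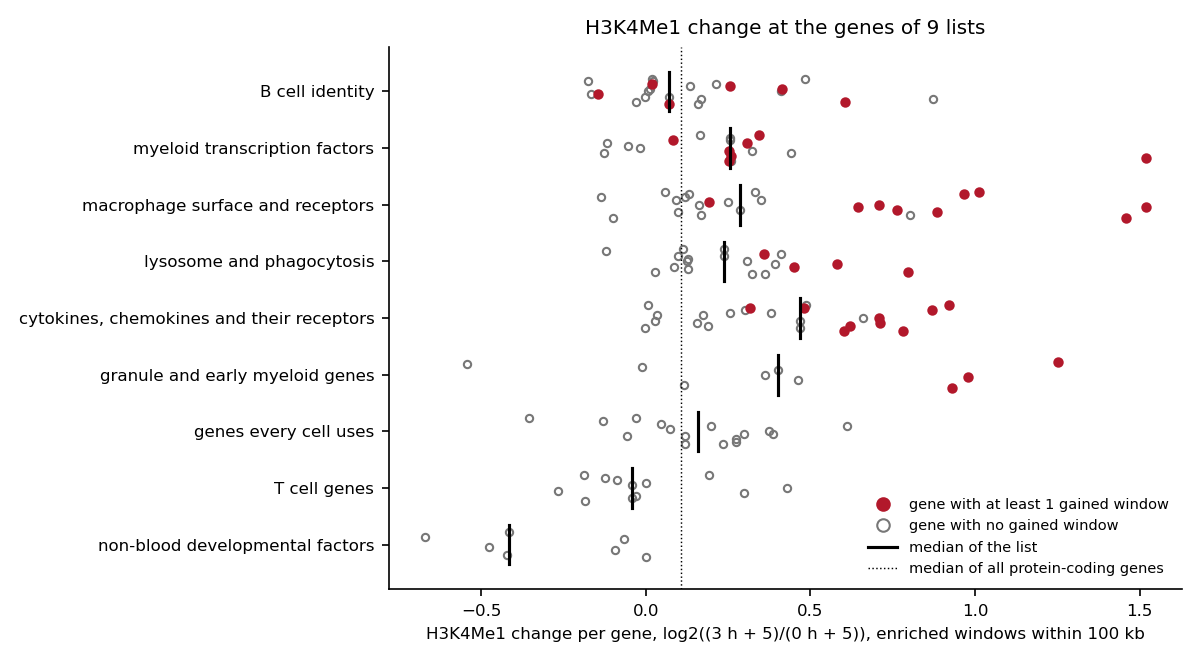
H3K4Me1 change per gene (horizontal axis, log2 of the 3 h over the 0 h tags with 5 tags added, summed over enriched windows nearest to the gene within 100 kb) for the members of 9 gene lists that had an enriched window, with filled red points for genes with a gained window, black bars for list medians and a dotted line for the median of all coding genes (0.11). The medians run from -0.42 for non-blood developmental factors to 0.47 for cytokines, chemokines and their receptors.

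Loci that the study picked as examples from these cells, some of them at gene starts, were read in 3 kb around their middle. The list is not independent evidence of a direction, and both loci of Ctsd and 2 of the 4 loci of Cebpb overlap each other. Of 29 such loci, 7 rose 2-fold and none fell 2-fold, against 3.05% and 0.72% of all enriched windows, and the median change was 0.65. The site 12.4 kb upstream of Mmp12, a macrophage elastase gene, changed most, from 13 to 90 tags (2.40), followed by Dusp1 with 28 and 112 (1.83), Tlr4 with 10 and 44 (1.71) and Cd14 with 8 and 34 (1.58). At Spi1, which encodes PU.1, the start held 343 and 456 tags (0.41). Cd40 changed least, with 172 and 188 tags (0.12, interval -0.18 to 0.44).

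Letters of 6 factors were searched on both strands in the fullest 300 bp of each distal window, without weighing their neighbours. The C/EBP letters TTGCNNAA were in 414 of 2340 gained windows (17.7%, interval 16.2 to 19.3), in 11.9% of all 70350 enriched distal windows and in 49 of 556 lost ones (8.81%, interval 6.59 to 11.5). The share was 19.1% in gained windows without enrichment at 0 hpi and 14.8% in those with it. Since gained windows had less GC in these 300 bp (median 44.8%, against 47.0% in all and 50.0% in lost windows), the shares were also read within bins of GC. They were 22.9% in gained windows against 17.2% in windows that changed less than 2-fold below 40% GC, 15.1% against 13.8% at 40 to 45%, 19.2% against 11.6% at 45 to 50%, 13% against 9.17% at 50 to 55% and 17.4% against 6.59% above it. At 40 to 45% GC the interval of the gained share (12.5 to 17.9) took in the other value. The lower share in lost windows did not hold in each bin, with 16% at 40 to 45%, 6.91% at 45 to 50%, 8.93% at 50 to 55% and 3.51% above it.

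Letters of B cell factors were less frequent in gained than in all windows when GC was not considered. CCCNNGGG of EBF1 was in 7.18% of gained, 9.56% of all and 12.8% of lost windows, and CAGCTG of E2A in 15.7%, 18% and 23.4%. Within the 5 bins of GC no common direction was left. From low to high GC, the EBF1 letters were in 2.64%, 4.47%, 6.76%, 15.1% and 25% of gained windows against 3.13%, 5.0%, 8.41%, 14.4% and 23.4% of less changed ones. Those of E2A were in 8.59%, 12.6%, 17.4%, 26.6% and 21.7% against 8.34%, 12.7%, 17.6%, 24.2% and 31.8%. The interval of the gained share took in the other value in each of these bins except that of E2A above 55% GC (13.8 to 31.6). GAGGAAGT of PU.1 was in 2.31%, 3.51% and 3.42%. From low to high GC its share in gained windows was 1.10%, 2.23%, 2.03%, 4.73% and 2.17%, against 2.38%, 3.17%, 3.78%, 4.09% and 3.75% in less changed ones, so it was lower in 4 of 5 bins, though the interval left out the other value at 45 to 50% GC alone (1.14 to 3.32). TGANTCA of AP-1 was in 10.5%, 10.0% and 8.63%, and TGTGGTTT of Runx in 3.08%, 2.97% and 3.24%. A match to letters is not a bound site.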

How the data were processed

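The authors aligned the reads to mm9 with Eland or Bowtie without mismatches and removed tags that were not unique and identical tags. Which aligner served which library is not given in the sources used here, and the submitters' processing notes name Bowtie. The deposited files hold no counts but 1 interval of 36 bp per tag, without strand, header or other unit, so counts were made here.

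A tag was placed 18 bp from its start, 1 tag per position was kept on chromosomes 1 to 19 and X, and libraries were thinned at random (seed 1) to the smallest of their mark: 10.9 M tags for H3K4Me1 (all 5 times), while H3K27Ac libraries kept 15.2 M and H3K27Me3 libraries 18.1 M. Windows of 3 kb started from base 1. Windows were mappable with a tag in at least 1 H3K4Me1 library and enriched at a Poisson tail below 0.001, which took 27, 34 and 39 tags for the 3 marks. Starts, genes and exons came from GENCODE vM1 on NCBIM37 (mm9), and 0 of 32213012 tags fell on unknown bases. Sequences are from the same build, and none is from chromosome 18. Older gene symbols were matched through RefSeq synonyms.

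With 1 library at each time no test was run, and genes and windows are not replicates. Intervals are exact (Poisson for counts, Clopper-Pearson for shares and ratios), and tags are not independent molecules. Named windows were the 8 largest distal and 4 largest proximal gains and losses, 1 per run with gaps up to 9 kb, of which 1 proximal loss is not reported here. Named genes were the 4 most changed of each list and those with gained or lost windows, except 1 T cell gene not reported here, and other genes were taken after their values were seen. Members and lists were chosen with earlier results of these data known. Counting and calling were tested on simulated data. Alternatives changed depth, identical tags, scaling, tags added, grid, window size, filter and definition of a start. Of the 15 libraries 9 were used, and the other 6 were not analysed here. Python 3.11.15, numpy 2.4.6, pandas 2.3.3 and scipy 1.17.1 were used.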

Additional observations from a re-analysis of the deposited data

Results flagged for a closer look

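Chromosome Y was outside all comparisons, and its distinct tag positions numbered 620 at 0 hpi and 785 at 3 hpi, both above the 3 that a count of 0 allows. At 0 hpi, 13096 positions held more than 2 deposited tags, the fullest 205, while at 3 hpi 0 positions did, and only 1 tag per position was used at either time. The cause of neither was tested.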

How the results depend on the processing

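No paired analysis was possible because each time had 1 library. Depth, another seed, identical tags, the shifted grid and the definition of a start moved none of the counts over all windows, gained shares or medians past the limits used. For the 9 gene lists, whose counts are small, 79 of 252 values moved past them, some with another seed alone. In the order gained, lost, distal gained and distal lost, windows numbered 6203, 193, 4721 and 157 with equal background, and 1951, 1106, 1613 and 887 with windows enriched at both times set equal. Relative to windows of like level, 252 were lost, 190 of them distal. With 1 tag added 1354 were lost, 1099 of them distal, and with 20 tags added the 4 counts were 1060, 11, 883 and 8. In 6 kb windows they were 1192, 192, 1008 and 171, and at a Poisson tail of 0.00001 losses numbered 336 and 262. Without the enrichment filter, 8710 were gained and 25935 lost (7683 and 23623 distal), so losses outnumbered gains only there. For like GC and level, an alternative chosen after seeing the data as was that for GC alone, 431 were lost. Cause was not tested.

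The share gained, proximal and then distal, was 6.05% and 6.71% with equal background, 1.38% and 2.29% with windows enriched at both times set equal, 2.52% and 3.90% for like level, 3.19% and 4.30% with 1 tag added, 0.723% and 1.26% with 20, 1.30% and 2.25% in 6 kb windows, 1.35% and 1.06% without the filter, and 1.65% and 2.28% for like GC. For like GC and level the distal share was 2.73%. The distal share was thus above the proximal one under each alternative except the one without the filter. Median changes, in the same order, were 0.40 and 0.33, 0.011 and -0.059, 0.045 and -0.013 for the 3 scalings above, -0.014 and -0.14 without the filter, 0.091 and -0.031 for like GC, and 0.086 and -0.029 for like GC and level, so the distal median turned sign in 5 of these. The 24 windows with the largest changes were chosen as extremes of the same tags, so their direction says nothing of stability. Their changes ran from 1.70 to 3.95 for distal gains and from -2.81 to -0.78 for distal losses, the last at Ak8 with another seed. Most lost windows stood near the threshold of 27 tags, where counting error is large.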
